A study of Homo sapiens with 12 samples.

Results

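The regulators described here are 10 genes that control or mark blood stem and progenitor cells: CD34, KIT, FLT3, GATA2, MEIS1, BMI1, TAL1, LMO2, NOTCH1 and PROM1. They were chosen by name, not by their values, and all 10 were found among the 26231 genes of the deposited normalized table and, by the same gene identifiers, among the 64253 identifiers of the count tables. The cells were 697 (EU3), an established human line of precursor B cell leukaemia, sorted for high aldehyde dehydrogenase activity (ALDH+). SH2 cells carried a doxycycline-inducible short hairpin RNA against IGF2BP1, an RNA-binding protein. They were measured untreated and after doxycycline in sets 1, 2, 3 and 4, which gave 4 libraries in each group, and each set was a separate sort of ALDH+ cells with its own doxycycline treatment. Libraries labelled as control, untreated and treated with doxycycline, came from sets 2 and 4, which gave 2 libraries in each group. The protocols mention a scrambled hairpin, but the labels of those 4 libraries do not say whether they carried it, so they are called control-labelled throughout. Treated SH2 cells were sorted again for the green fluorescent reporter that doxycycline switches on, so the hairpin, the drug and the second sort cannot be told apart within SH2 cells. The labels name 1 cell line for all 12 libraries, and p-values measure the spread between sets. IGF2BP1 near 0 in the control-labelled libraries and the high T cell markers of those of set 2, given below, leave the identity of the control-labelled cells in doubt, and whether they were the same line as the SH2 cells was not tested. Each difference between SH2 and control-labelled cells is subject to this doubt.

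Blood stem cells keep their capacity for renewal through surface receptors and a small group of transcription factors. KIT and FLT3 are receptor tyrosine kinases that bind stem cell factor and FLT3 ligand, and NOTCH1 is a receptor that is cut on ligand binding and releases a transcriptional activator. TAL1, LMO2 and GATA2 form a DNA-binding complex with LDB1 and an E protein, in which TAL1 and the E protein hold an E box and GATA2 holds a GATA site. MEIS1 binds DNA with PBX and HOX proteins, and BMI1 is a subunit of Polycomb repressive complex 1, which silences genes such as CDKN2A. CD34 and PROM1 (CD133) are glycoproteins used to sort stem and progenitor cells. In the lymphoid lineages KIT and FLT3 belong to early progenitors, NOTCH1 directs cells to the T lineage, and TAL1 and LMO2 are best known as oncogenes of T cell leukaemia.

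The libraries held 2210291 to 3370952 reads assigned to genes, sequenced from the 3′ end of messenger RNA. Levels are CPM (reads of a gene scaled to a common library total) on the scale of the trimmed mean of M values (TMM), and 3 counts, taken as the limit of detection, corresponded to 0.890 to 1.42 CPM. IGF2BP1 itself stood at 21.7, 30.5, 39.2 and 32.9 CPM in the untreated SH2 libraries of sets 1 to 4 and at 6.28, 14.8, 25.0 and 16.2 CPM in the treated ones, lower with doxycycline in 4 of 4 sets (log2 fold change -0.99 ± 0.43 SE, edgeR adjusted p = 0.983, in a fit that does not pair by set). It stood at 0 to 1.42 CPM in the control-labelled libraries, below every treated SH2 library, so the targeted gene does not bear out the label of control, and each direction given below between SH2 and control-labelled cells holds for libraries so labelled. The 12 precursor B cell markers summed to 1261 to 3295 CPM and none was at 0 in all libraries, and of the 10 erythroid and megakaryocyte markers 5 were at 0 in all libraries, among them the erythroid HBA1. The 12 T cell markers summed to 1769 CPM in the untreated and 1961 CPM in the treated control-labelled library of set 2, against 107 to 190 CPM in set 4 and 41.8 to 122 CPM in SH2 cells, with CD8B at 0 in all 12. The 10 myeloid markers summed to 3.95 to 17.6 CPM, with ELANE and FCGR3A at 0, and the 8 endothelial markers to 4.61 to 30.1 CPM, with CDH5, TEK and CLDN5 at 0. In bulk RNA, fewer cells that express a gene and less of its RNA in each cell cannot be told apart.

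Promoter sequences are shown for KIT and FLT3, whose levels varied together between the sets, and for TAL1, whose reads came almost wholly from 1 pair of libraries. They are RefSeq entries on GRCh38.p14, each running from 250 bases before to 50 bases after the transcript start, 5′ to 3′ along the gene's strand. Capitals mark the GATA motif (GATAA, or TTATC on the other strand) and the E box (CANNTG, which is its own reverse complement). The motifs do not overlap in these sequences.
KIT, chr4:54657707-54658006, plus strand: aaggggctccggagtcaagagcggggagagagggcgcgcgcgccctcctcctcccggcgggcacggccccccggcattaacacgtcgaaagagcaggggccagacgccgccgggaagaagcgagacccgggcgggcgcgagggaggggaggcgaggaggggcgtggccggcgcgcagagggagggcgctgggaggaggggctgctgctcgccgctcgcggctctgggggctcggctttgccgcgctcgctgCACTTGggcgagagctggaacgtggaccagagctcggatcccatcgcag
FLT3, chr13:28100527-28100826, minus strand: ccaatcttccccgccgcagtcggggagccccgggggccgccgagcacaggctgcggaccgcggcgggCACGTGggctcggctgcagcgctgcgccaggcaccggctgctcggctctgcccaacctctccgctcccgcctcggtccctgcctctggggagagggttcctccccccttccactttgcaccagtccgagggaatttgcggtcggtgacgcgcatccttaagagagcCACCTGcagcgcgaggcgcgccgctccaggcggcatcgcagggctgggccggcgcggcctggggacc
TAL1, chr1:47232286-47232585, minus strand: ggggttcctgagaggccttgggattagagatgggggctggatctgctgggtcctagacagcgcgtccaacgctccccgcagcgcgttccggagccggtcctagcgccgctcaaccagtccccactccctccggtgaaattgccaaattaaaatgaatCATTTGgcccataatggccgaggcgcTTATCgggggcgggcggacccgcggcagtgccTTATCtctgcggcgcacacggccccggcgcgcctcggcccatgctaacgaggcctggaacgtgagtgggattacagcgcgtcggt
The KIT window held 1 E box and no GATA motif, and the FLT3 window held 2 E boxes and no GATA motif. The TAL1 window shown held 2 GATA motifs and 1 E box, and it was the only one of the 15 promoter entries of the genes described here with a GATA motif. The other TAL1 entry (chr1:47231666-47231965) held neither motif and is not shown. Of 35116 human promoter windows of the same length, 22.7% held a GATA motif and 68.7% an E box. These are matches of letters, not measured binding sites. Entries were listed for 9 of the 10 genes.

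Of the 10 regulators, 4 were at or near 0 in every library and were not tested. CD34 (chr1:207880972-207911402, minus strand, GRCh38) gave 1 read in all, in the untreated control-labelled library of set 2. PROM1 (chr4:15963076-16084378, minus strand) gave 1 read in each of 3 libraries, untreated SH2 of sets 2 and 3 and untreated control-labelled of set 4. GATA2 (chr3:128479427-128493185, minus strand) gave 1 read, in untreated SH2 of set 4. MEIS1 (chr2:66433452-66573869, plus strand) gave 2 reads in treated SH2 of set 2 and 2 in the treated control-labelled library of set 4. No library reached the limit of 3 counts for any of these genes, so differences between groups were not detectable at this depth. The last annotated exon of PROM1, 84 bases long, lies wholly within an exon of FGFBP2 on the same strand, so reads there cannot be assigned to 1 of the 2 genes. MEIS1 shares 439 exonic bases with MEIS1-AS2 on the opposite strand.

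The other 6 regulators, KIT, FLT3, BMI1, TAL1, LMO2 and NOTCH1, passed the filter on low counts, which kept 11968 genes. None of the 6 passed an adjusted p of 0.05 in any of the 5 comparisons (edgeR quasi-likelihood test, Benjamini-Hochberg over 11968 genes), and DESeq2 called 0 of them where it gave an adjusted p. At an unadjusted p under 0.05 stood TAL1 between untreated SH2 and control-labelled cells (1 gene), TAL1 and LMO2 between treated ones (2 genes), and 0 of the 6 in the other 3 comparisons. Doxycycline called 2 genes in SH2 cells, 0.0167% of those tested, and 0 in control-labelled cells (0%). The difference between both responses called 0 genes (0%). At an edgeR unadjusted p under 0.05 stood 584 genes for doxycycline in SH2 cells, 82 in control-labelled cells and 116 for the difference between the responses. Chance alone would place a share of 0.05 of the 11968 genes there, which is more than each of these counts. DESeq2 called 17 genes for doxycycline in SH2 cells and 3 for the difference between the responses, and 0 in control-labelled cells. Blocking on the set gave 6 genes in SH2 cells and 1 for the difference between the responses. Untreated SH2 and control-labelled cells differed in 938 genes (7.84%; 2.94% higher and 4.9% lower in SH2 cells), or 1505 with the set as a block, and treated cells in 1326 genes (11.1%; 4.6% higher and 6.48% lower), or 2171 with it. With none of the 6 called, the regulators' share in these last comparisons was 0 beside backgrounds of 7.84% and 11.1%. Without both control-labelled libraries of set 2 the counts were 322 and 646 genes. Leaving out 1 library, the untreated count was 343 without the untreated control-labelled library of set 2 and 490 without that of set 4, and the treated count was 737 and 645 without the treated ones of sets 2 and 4. The doxycycline count of 2 genes in SH2 cells fell to 0 on omitting any of 4 libraries (untreated sets 1 and 4, treated sets 2 and 3), and was 1 without treated set 4 and 3 without treated set 1.

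**Figure D1:**
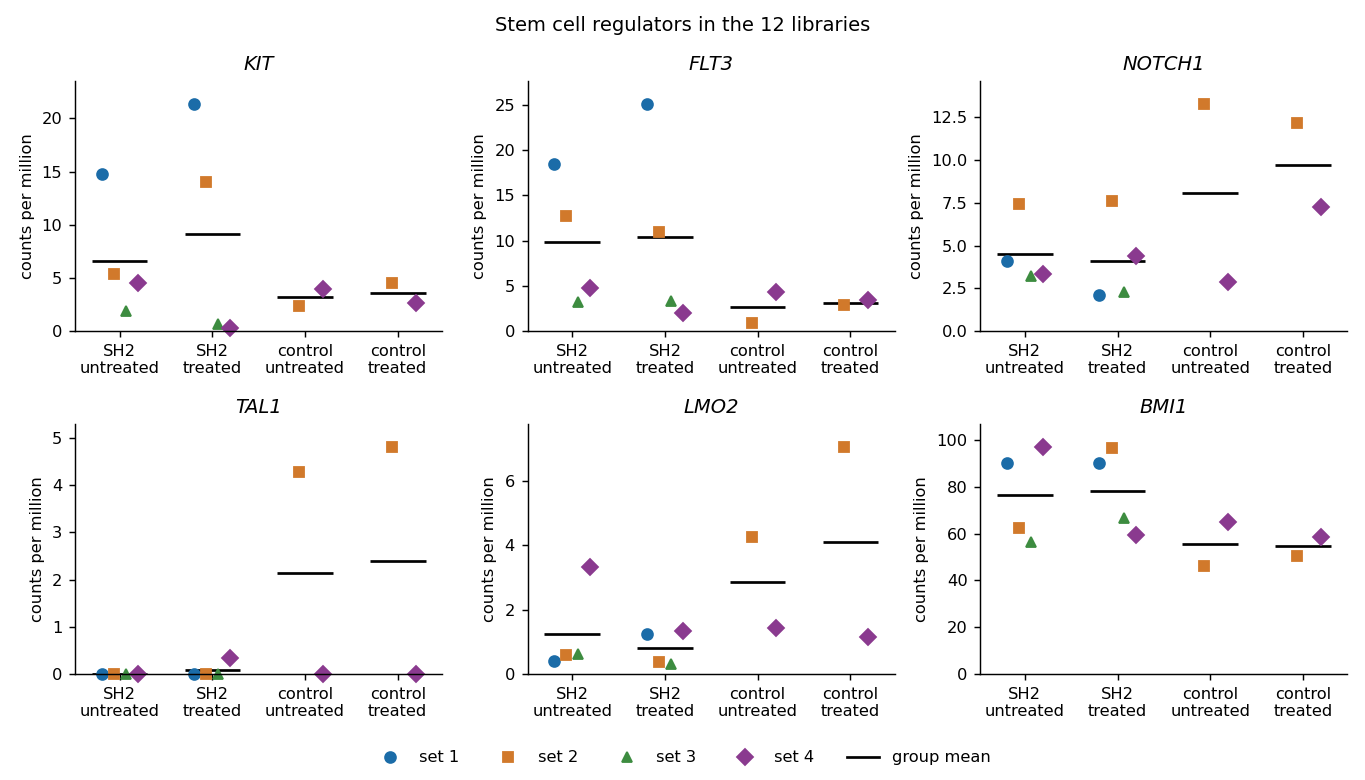
Level of the 6 tested regulators in each library. The y axis is CPM and starts at 0, the x axis gives the 4 groups, symbols give the set and bars the group means. KIT and FLT3 are highest in the SH2 libraries of set 1, and TAL1 stands above 1 CPM in both control-labelled libraries of set 2 and in no other library.

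KIT (chr4:54657918-54740715, plus strand), the receptor for stem cell factor, differed between the SH2 sets, and its difference with doxycycline changed sign between them. Its levels in untreated SH2 cells were 14.8, 5.34, 1.94 and 4.53 CPM in sets 1 to 4, a mean of 6.64 ± 5.60 CPM (SD, n = 4). In treated SH2 cells they were 21.4, 14.0, 0.659 and 0.337 CPM, a mean of 9.10 ± 10.4 CPM (SD, n = 4). The treated libraries of sets 1 and 2 were thus high and those of sets 3 and 4 were below the limit of 3 counts, and the groups overlapped. The control-labelled libraries gave 2.37 and 3.98 CPM untreated and 4.49 and 2.67 CPM treated, in sets 2 and 4, inside the SH2 range. With doxycycline KIT was higher in SH2 sets 1 and 2, by 0.50 and 1.29 on the log2 CPM scale, and lower in sets 3 and 4, with differences of -0.82 and -2.01. The fitted log2 fold change was 0.45 ± 0.90 (SE; edgeR adjusted p = 0.986). Against control-labelled cells it was 1.01 ± 1.23 (SE) untreated (adjusted p = 0.731) and 1.30 ± 1.20 (SE) treated (adjusted p = 0.547). Within sets 2 and 4, SH2 minus control-labelled KIT was 0.71 and 0.10 (log2 CPM) untreated. Treated, the signs were opposite, at 1.48 in set 2 and -1.50 in set 4.

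FLT3 (chr13:28003274-28100592, minus strand), the receptor of FLT3 ligand, followed the sets in the same order at the top. Untreated SH2 cells had 18.4, 12.8, 3.24 and 4.83 CPM in sets 1 to 4, a mean of 9.81 ± 7.10 CPM (SD, n = 4). Treated SH2 cells had 25.1, 11.0, 3.29 and 2.02 CPM, a mean of 10.4 ± 10.6 CPM (SD, n = 4). Sets 1 and 2 were above sets 3 and 4 whether or not the cells were treated, and the treated and untreated values overlapped. The control-labelled libraries had 0.949 and 4.34 CPM untreated and 2.88 and 3.44 CPM treated, in sets 2 and 4. The SH2 library of set 2 was above its control-labelled counterpart by 2.52 (log2 CPM) untreated and 1.66 treated, whereas in set 4 the differences were 0.08 and -0.60. The fitted change with doxycycline was 0.07 ± 0.72 (log2, SE; edgeR adjusted p = 1), and the difference from control-labelled cells was 1.81 ± 1.03 (SE) untreated (adjusted p = 0.373) and 1.68 ± 1.01 (SE) treated (adjusted p = 0.328).

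Because these levels separated the sets, a test of the set over the 8 SH2 libraries, with doxycycline as a term, was added after the values of KIT and FLT3 had been seen. It called 1145 of 11968 genes (9.57%). For KIT and FLT3, whose separation of the sets prompted the test, it is no independent evidence, and no p is given for them. NOTCH1 (adjusted p = 0.267), LMO2 (0.359) and BMI1 (0.582) did not pass, although BMI1 passed without the untreated (0.0356) or treated (0.0446) library of set 4. TAL1 passed the filter on low counts through its reads in control-labelled cells and had 1 read over the 8 SH2 libraries. The test could therefore show no difference between sets for TAL1, and no p is given for it. The number of genes called ran from 13 without the untreated library of set 3 to 5530 without that of set 4, so that it depends on single libraries. Besides those, it was 79 and 41 without the untreated and treated libraries of set 1, 703 without the treated library of set 2, 21 without the treated library of set 3 and 3784 without that of set 4.

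The precursor B cell markers varied between the sets as well, and in set 4 also between untreated and treated cells. Their summed level in untreated SH2 cells was 3181 CPM in set 1, 2091 in set 2, 1261 in set 3 and 2440 in set 4, and in treated cells it was 3295, 2134, 1262 and 1282 CPM. The libraries with least KIT, treated sets 3 and 4, were among the 3 with the lowest sums. Other libraries went the other way. Untreated SH2 set 4 had a higher sum than set 2 but less KIT and FLT3. The control-labelled libraries of set 4 had sums of 3236 CPM untreated and 3185 CPM treated. KIT was only 3.98 and 2.67 CPM there, and FLT3 4.34 and 3.44 CPM. The part of this variation in the levels of KIT and FLT3 was not tested.

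In control-labelled cells, which had 2 libraries in each state, the fitted changes with doxycycline were 0.16 ± 1.41 (log2, SE) for KIT, 0.20 ± 1.20 for FLT3, 0.29 ± 0.75 for NOTCH1, 0.56 ± 1.09 for LMO2 and -0.02 ± 0.36 for BMI1, each with edgeR adjusted p = 1. TAL1 had 9 reads untreated and 15 treated there (0.27 ± 1.63, SE; adjusted p = 1). The SH2 response minus that of control-labelled cells was 0.29 ± 1.69 (SE) for KIT, -0.13 ± 1.39 for FLT3, -0.44 ± 0.94 for NOTCH1, -1.17 ± 1.42 for LMO2 and 0.06 ± 0.44 for BMI1, with edgeR adjusted p of 0.999998 for each. In both comparisons the standard error of each of these genes was larger than its value. Of the 6 lists of related genes described further on, 0 members passed in either comparison with edgeR or DESeq2. The smallest unadjusted p for doxycycline in control-labelled cells were those of RNF2 (-0.99 ± 0.48, SE), DLL3 (-0.84 ± 0.42) and ENG (-1.83 ± 0.97), and for the difference between responses those of HOXB4 (-2.91 ± 1.08), DLL3 (1.06 ± 0.49) and RNF2 (1.22 ± 0.57).

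**Figure D2:**
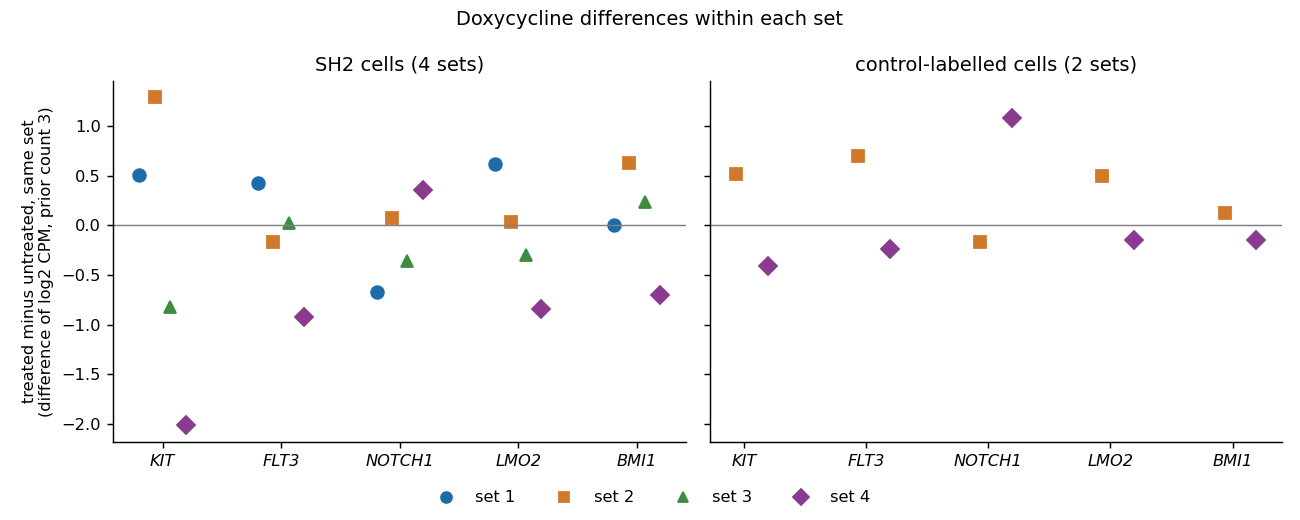
Treated minus untreated level within each set, in SH2 cells (left, 4 sets) and control-labelled cells (right, 2 sets). The y axis is the difference of log2 CPM computed with a prior count of 3, and symbols give the set. In SH2 cells each of the 5 genes has points on both sides of 0, with KIT from -2.01 to 1.29. TAL1 is not drawn because its SH2 libraries held 0 or 1 counts.

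The genes whose profiles over the 12 libraries were most like that of KIT were IGFBP7, TMPO-AS1 and NEURL1B, with mean absolute differences of centred log2 CPM of 0.27, 0.33 and 0.34. For FLT3 they were COL4A2, GOLM1 and MYLK, with 0.22, 0.23 and 0.24. TMPO-AS1 is transcribed against TMPO, and whether the counting used strand was not given in any source read. These are distances over 12 libraries that share sets and lie among 11967 genes compared, and they are given as descriptions.

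The other genes of KIT and FLT3 signalling were read from a list of 23, of which 16 were tested. KITLG, the gene of stem cell factor, and TEK had no read in any library, and FLT3LG, the gene of FLT3 ligand, reached at most 1.91 CPM, in the treated control-labelled library of set 4. With doxycycline 0 of 16 passed in SH2 cells, as for each of the other 5 lists. DESeq2 also called 0 in all 6 lists, and only LDB1, HOXB4 and NCSTN had an unadjusted p under 0.05. The 16 genes had a median log2 fold change of 0.06 beside 0.03 over all genes tested. The smallest unadjusted p were those of CBL, an E3 ligase that removes activated receptors (-0.39 ± 0.25, SE), and of its relative CBLB (-0.48 ± 0.35, SE), both with edgeR adjusted p = 0.983. Between untreated SH2 and control-labelled cells 0 of 16 were higher and 2 lower, the feedback inhibitor SOCS1 (-1.62 ± 0.46 SE, adjusted p = 0.0437) and the signal transducer STAT3 (-1.18 ± 0.34 SE, adjusted p = 0.0450), with a list median of -0.59 beside 0.03 and 7.84% of all genes called. Between treated cells 1 was higher and 3 lower, with 11.1% of all genes called. The adaptor SHC1 was higher in SH2 cells (1.69 ± 0.45 SE, adjusted p = 0.0269), and the phosphatase PTPN6 (-2.59 ± 0.58 SE, adjusted p = 0.00993), STAT3 (-1.34 ± 0.33 SE, adjusted p = 0.0190) and CBL (-0.997 ± 0.296 SE, adjusted p = 0.0439) were lower, with a list median of -0.87 beside 0.04. Blocked on the set, the list gave 5 calls untreated and 6 treated, and without both control-labelled libraries of set 2 it gave 0 in either comparison. Each of these calls was lost without at least 1 library. The highest adjusted p, reached without the untreated control-labelled library of set 2, were 0.248 for SOCS1 (log2 fold change -1.54) and 0.586 for STAT3 (-0.65). In treated cells they were 0.156 for PTPN6, 0.194 for STAT3 and 0.201 for SHC1 without the treated control-labelled library of set 2, and 0.297 for CBL without that of set 4. The calls of SHC1 (0.0680) and CBL (0.101) were also lost in a fit of the treated groups alone, and that of CBL without the filter on low counts (0.0867).

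NOTCH1 (chr9:136494433-136545786, minus strand) was highest in the control-labelled libraries of set 2. They had 13.3 CPM untreated and 12.2 CPM treated, and those of set 4 had 2.89 and 7.26 CPM. Untreated SH2 cells had 4.10, 7.41, 3.24 and 3.32 CPM in sets 1 to 4, a mean of 4.52 ± 1.97 CPM (SD, n = 4), and treated SH2 cells had 2.09, 7.59, 2.31 and 4.38 CPM, a mean of 4.09 ± 2.55 CPM (SD, n = 4). Within SH2 cells set 2 was the highest of the 4 with and without doxycycline, and the untreated control-labelled library of set 4 was below every untreated SH2 library. The change with doxycycline was -0.15 ± 0.56 (log2, SE; edgeR adjusted p = 0.998). The difference between SH2 and control-labelled cells was -0.81 ± 0.66 (SE) untreated (adjusted p = 0.571) and -1.24 ± 0.64 (SE) treated (adjusted p = 0.249). The untreated direction turned to 0.64 without the control-labelled libraries of set 2. The nearest profiles were those of FAM162A, PMS2 and CCNE1, at mean absolute differences of 0.32, 0.32 and 0.33.

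Of 31 other Notch pathway genes 28 were tested, and NOTCH4 and the ligand DLL1 had no counted read. Doxycycline called 0 of 28 in SH2 cells, with a median log2 fold change of 0.19 beside 0.03 over all genes. The smallest unadjusted p, 0.00403, was that of NCSTN, a subunit of the gamma-secretase that cuts Notch receptors. NCSTN had 28.7, 39.4, 36.6 and 55.2 CPM untreated and 23.5, 27.7, 14.2 and 16.5 CPM treated in sets 1 to 4. Each treated library was below all 4 untreated ones (log2 fold change -0.97 ± 0.28 SE, edgeR adjusted p = 0.862, in a fit that does not pair by set). In control-labelled cells NCSTN had 25.6 and 25.3 CPM untreated and 17.0 and 14.1 CPM treated.

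Between SH2 and control-labelled cells 3 of the 28 Notch pathway genes were higher and 2 lower without doxycycline, and 5 were higher and 3 lower with it. Over all genes 7.84% were called untreated (2.94% higher and 4.9% lower) and 11.1% treated (4.6% higher and 6.48% lower). The list medians were 0.30 and 0.44, beside 0.03 and 0.04 over all genes. HES1, a repressor switched on by Notch, had 210 and 100 CPM in the untreated control-labelled libraries of sets 2 and 4 and 208 CPM in the treated one of set 2, and the treated one of set 4 was above all of these. In SH2 cells HES1 ran from 1.23 to 20.1 CPM untreated and from 2.51 to 10.1 CPM treated, with no overlap. It was lower in SH2 cells, with log2 fold changes of -4.19 ± 0.68 (SE; edgeR adjusted p = 0.00164) untreated and -5.19 ± 0.70 (SE; adjusted p = 0.000389) treated, and its call held without each single library and without both control-labelled libraries of set 2.

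HES4, a relative of HES1, had 69.3 and 3.98 CPM untreated and 49.99 and 2.67 CPM treated in control-labelled sets 2 and 4. It had no read in untreated SH2 cells and 1 in treated ones, so it was at least 131-fold lower untreated against 3 counts over the group, and the treated ratio was 313 (95% counting interval 55.4 to 12444.5). Both HES4 calls were lost without the control-labelled library of set 2, with adjusted p of 0.125 untreated and 0.221 treated, and the treated one also when treated SH2 cells of set 2 were left out (0.0547). The receptor NOTCH3 had 28.9 and 5.42 CPM untreated and 45.8 and 10.3 CPM treated in control-labelled sets 2 and 4, against 0.648 to 6.97 CPM in SH2 cells. NOTCH3 was lower in treated SH2 cells (log2 fold change -2.55 ± 0.71 SE, edgeR adjusted p = 0.0345), a call lost without any of 6 libraries and furthest without the treated control-labelled library of set 2 (-1.11, adjusted p = 0.548).

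Higher in SH2 cells were the ligand genes DLL3 and JAG2 and the repressor gene HEY2. DLL3 had 54.2 to 121 CPM in SH2 cells against 9.17 to 21.0 CPM in control-labelled ones, 2.02 ± 0.37 (log2, SE; edgeR adjusted p = 0.00364) higher untreated and 3.08 ± 0.40 (adjusted p = 0.000224) treated. HEY2 was 3.42 ± 0.62 (SE; adjusted p = 0.00327) higher untreated and 3.13 ± 0.56 (adjusted p = 0.00267) treated, and JAG2 was 2.35 ± 0.63 (SE; adjusted p = 0.0337) and 2.03 ± 0.59 (adjusted p = 0.0404) higher. MAML3, a coactivator of cut Notch, was higher by 2.53 ± 0.54 (SE; adjusted p = 0.00809) in treated cells. LFNG, which adds sugars to Notch receptors, had 59 reads in treated SH2 cells and 3 in treated control-labelled cells, a ratio of 10.2 (95% counting interval 3.34 to 51.1; edgeR adjusted p = 0.0212). Without the untreated control-labelled library of set 2 the untreated calls of HEY2 (adjusted p = 0.0654), DLL3 (0.0810) and JAG2 (0.330) were lost. In treated cells those of DLL3 and HEY2 held without each library, whereas MAML3 (0.114) and JAG2 (0.241) were lost without the treated control-labelled library of set 2, and LFNG (0.160) without that of set 4. The treated calls of JAG2 (0.0847) and LFNG (0.0687) were also lost in a fit of the treated groups alone. With the set as a block the list gave 7 calls untreated and 12 treated. Without both control-labelled libraries of set 2 it gave 1 call untreated, HES1, and 4 treated, DLL3, HES1, HEY2 and LFNG. The T cell markers, at 1769 and 1961 summed CPM in those libraries, moved with NOTCH1, NOTCH3 and HES4, and their part in these differences was not tested.

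**Figure D3:**
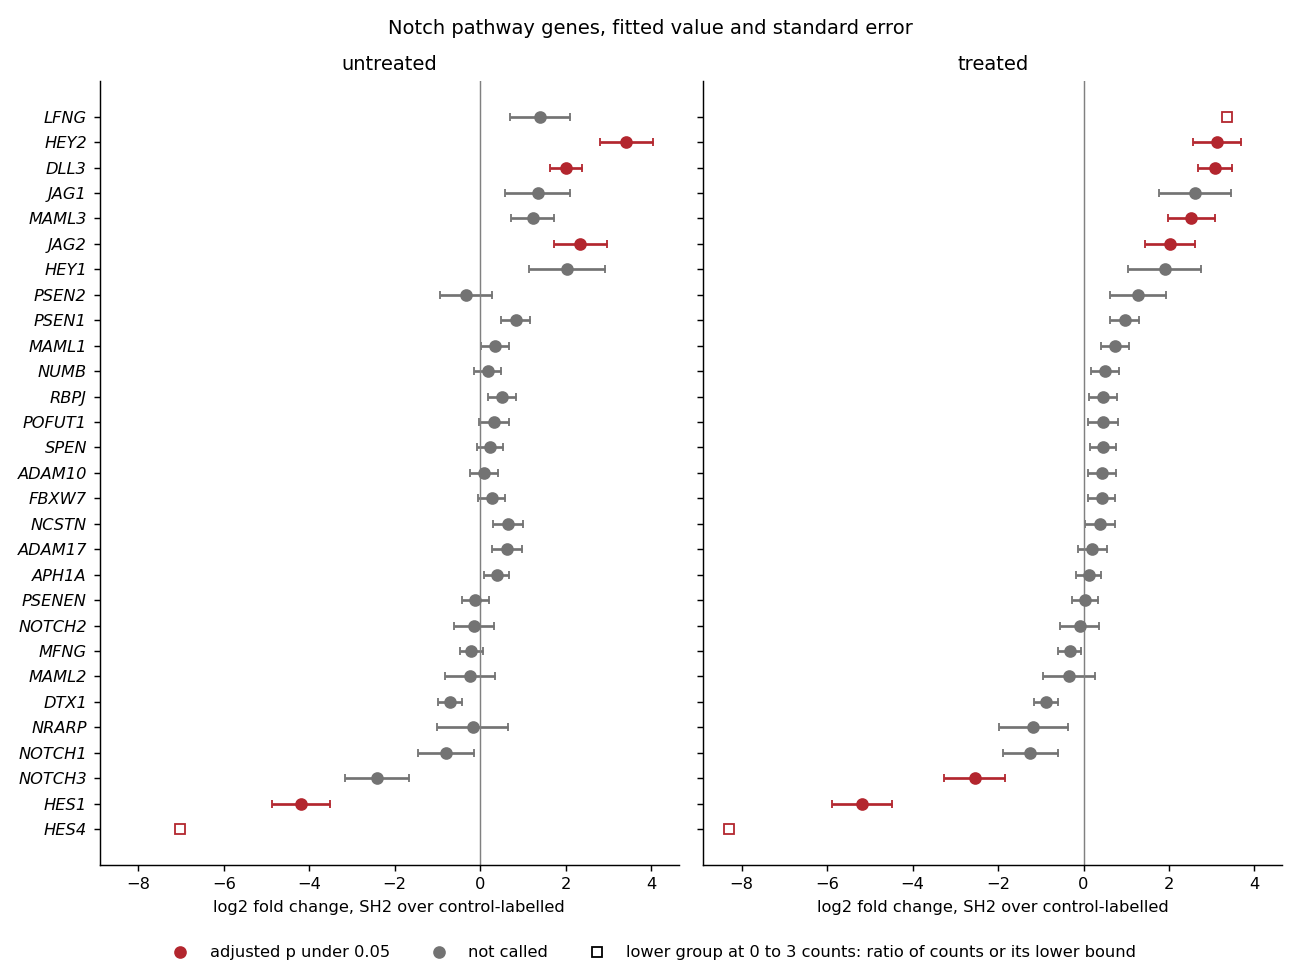
Log2 fold change of SH2 over control-labelled cells for NOTCH1 and the 28 tested Notch pathway genes, untreated (left) and treated (right). Circles are fitted values with standard errors, open squares are ratios of counts where the lower group held 0 to 3 counts (for HES4 untreated a lower bound), and red marks an edgeR adjusted p under 0.05. HES1 and HES4 lie lowest in both panels, and NOTCH1 is not called in either.

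TAL1 (chr1:47216290-47232220, minus strand), the basic helix-loop-helix member of the complex, was detected above the limit of 3 counts in 2 of 12 libraries. The control-labelled library of set 2 had 4.27 CPM untreated (9 reads) and 4.81 CPM treated (15 reads), and that of set 4 had 0 in both states. TAL1 shares 845 exonic bases (14.8% of its own, none of them in the last exon) with AL135960.1 on the opposite strand, and since the strand setting of the counting was not given in any source read, reads there could belong to either gene. All 4 untreated SH2 libraries and 3 of the 4 treated ones had 0, and treated SH2 of set 4 had 0.337 CPM (1 read). Untreated, with reads pooled over libraries, TAL1 was at least 7.52-fold lower in SH2 cells, against 3 counts over the group (edgeR unadjusted p = 0.0259, adjusted p = 0.168). Treated, the pooled ratio was 28.8 (95% counting interval 4.43 to 1213; edgeR adjusted p = 0.174). All control-labelled reads came from set 2, so the bound and the ratio each rest on 1 control-labelled library. They do not measure the spread between libraries. Without the filter on low counts TAL1 passed in both comparisons, with edgeR adjusted p of 0.0151 and 0.0363. Without the untreated control-labelled library of set 2 no read of TAL1 was left in the untreated groups. The genes nearest to TAL1 in profile were RP3-370M22.8, FBLN2 and RPP25, at mean absolute differences of 0.06, 0.07 and 0.13. Their mean levels over the 12 libraries were 0.930, 0.862 and 1.09 CPM, near the limit of 3 counts. Genes with 0 counts in the same library have the same log2 CPM before centring. These distances are therefore not comparable with those of regulators at higher levels.

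LMO2 (chr11:33858576-33892289, minus strand), the bridging protein of the TAL1 complex, was low in all groups. It had 4.27 and 1.45 CPM untreated and 7.05 and 1.15 CPM treated in control-labelled sets 2 and 4. Untreated SH2 cells had 0.410, 0.593, 0.648 and 3.32 CPM in sets 1 to 4, a mean of 1.24 ± 1.39 CPM (SD, n = 4), and treated SH2 cells had 1.26, 0.380, 0.329 and 1.35 CPM, a mean of 0.828 ± 0.549 CPM (SD, n = 4). The untreated SH2 library of set 4 was above its control-labelled counterpart, and the highest values were those of control-labelled set 2. The change with doxycycline was -0.61 ± 0.92 (log2, SE; edgeR adjusted p = 0.986), and it turned to 0.17 without both SH2 libraries of set 4. Against control-labelled cells the difference was -1.11 ± 0.995 (SE) untreated (adjusted p = 0.616) and -2.28 ± 0.98 (SE) treated (adjusted p = 0.162). Without the control-labelled library of set 2 in the same state it was -0.18 (adjusted p = 0.983) untreated and -0.47 (adjusted p = 0.902) treated. The nearest profiles were USP6NL, FAM104A and RAP1GAP, at 0.30, 0.33 and 0.33.

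**Figure D4:**
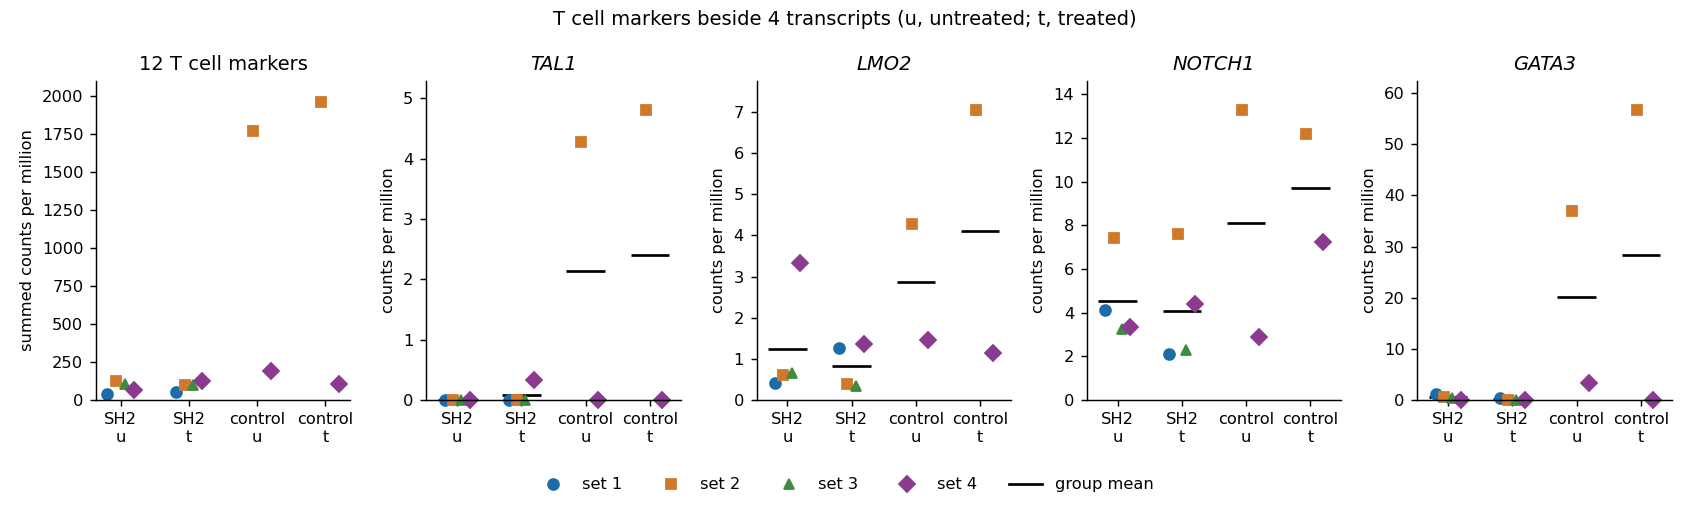
Summed CPM of the 12 T cell markers (left) and CPM of TAL1, LMO2, NOTCH1 and GATA3 in each library, with symbols for the set and bars for the group means of single genes. The 2 control-labelled libraries of set 2 are highest in all 5 panels, with marker sums of 1769 and 1961 CPM.

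A list of 21 genes held the other members, relatives and cofactors of the TAL1, LMO2 and GATA2 complex, of which 19 were tested. GATA1 had no read. With doxycycline 0 of 19 passed in SH2 cells, with a median of 0.00 beside 0.03 over all genes. LDB1, which joins LMO2 complexes on distant sites, had 7.79, 4.15, 4.21 and 6.34 CPM untreated and 4.19, 2.28, 0.659 and 1.35 CPM treated in SH2 sets 1 to 4. LDB1 was thus lower in 4 of 4 sets (log2 fold change -1.42 ± 0.53 SE, edgeR unadjusted p = 0.0181, adjusted p = 0.983, in a fit that does not pair by set). In control-labelled cells LDB1 was 5.69 and 6.87 CPM untreated and 3.53 and 2.67 CPM treated. The E protein gene TCF4, second by p, changed by 0.40 ± 0.25 (SE; adjusted p = 0.983). TCF3, another E protein gene, passed in no comparison.

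Between SH2 and control-labelled cells 1 of the 19 was higher and 2 lower, in untreated and in treated cells, where 7.84% and 11.1% of all genes were called. RUNX1T1, a corepressor, had no read in any SH2 library and 18.5 and 12.7 CPM untreated and 14.7 and 26.4 CPM treated in control-labelled sets 2 and 4. Against 3 counts over the group it was at least 61.8-fold lower untreated (edgeR adjusted p = 0.000828) and 73.6-fold lower treated (adjusted p = 0.000573), and these calls held without each library. HHEX, a homeobox factor of early B and blood progenitors, had 5.04 to 11.7 CPM in SH2 cells and 0 to 0.475 CPM in control-labelled cells, with 1 read in each control-labelled group. Its ratio was 36.7 (95% counting interval 6.43 to 1465) untreated and 40.1 (6.98 to 1603) treated, with edgeR adjusted p of 0.00483 and 0.00325, and only the untreated call was lost on leaving out 1 library (adjusted p = 0.0708 without the untreated control-labelled library of set 4). GATA3, the GATA factor of T cells, had 37.0 and 3.25 CPM untreated and 56.7 and 0 CPM treated in control-labelled sets 2 and 4, and at most 1.23 CPM in SH2 cells. GATA3 was lower untreated (log2 fold change -5.19 ± 1.40 SE, edgeR adjusted p = 0.0361), which was lost without any of 7 libraries (adjusted p = 0.626 and log2 fold change -2.60 without the untreated control-labelled library of set 2) and in the DESeq2 test (adjusted p = 0.146). Treated, its ratio was 340 (95% counting interval 60.3 to 13507; edgeR adjusted p = 0.00913), and without the control-labelled library of set 2 the fitted direction reversed (1.61, adjusted p = 0.832). TAL1, LMO2 and GATA3 were thus highest in the libraries with the highest T cell marker sums, and the part of these markers in the values was not tested. Blocking on the set gave 4 calls untreated and 5 treated, and without both control-labelled libraries of set 2 it gave 2 in each, HHEX and RUNX1T1.

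MEIS1 itself was not detected above the limit, and of 13 MEIS, PBX and HOX partner genes 7 were tested. PBX2, PKNOX2, HOXA7 and HOXA10 had no counted read. Doxycycline called 0 of 7 in SH2 cells, with a median of 0.25 beside 0.03. HOXB4, which the title of the series names, had 1.23, 0.593, 0.972 and 0.905 CPM untreated and 0, 0, 0 and 0.337 CPM treated in SH2 sets 1 to 4. These are 11 reads against 1, a pooled ratio of 9.93 (95% counting interval 1.44 to 427; edgeR unadjusted p = 0.00824, adjusted p = 0.983). No SH2 library was above the limit of 3 counts for HOXB4. The interval covers counting error only and not the spread between sets, so a change with doxycycline was not shown. In control-labelled cells HOXB4 had 35.6 and 11.6 CPM untreated and 20.2 and 29.8 CPM treated. It was the 1 gene of the list called between SH2 and control-labelled cells, lower (log2 fold change -4.62 ± 0.57 SE, edgeR adjusted p = 0.000185) untreated and with a ratio of 271 (95% counting interval 47.8 to 10775; adjusted p = 2.45e-05) treated. Both HOXB4 calls held without each library. PBX3 was called with the set as a block as well in both comparisons, which gave 2 calls each.

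BMI1 (chr10:22321211-22331484, plus strand) was detected in every library with 97 to 321 reads, so that its estimates were the most precise of the regulators. Untreated SH2 cells had 90.2, 62.3, 56.4 and 96.9 CPM in sets 1 to 4, a mean of 76.4 ± 20.1 CPM (SD, n = 4). Treated SH2 cells had 90.1, 96.4, 66.5 and 59.3 CPM, a mean of 78.1 ± 18.0 CPM (SD, n = 4). The groups overlapped, and the difference within a set was -0.70 (log2 CPM) in set 4 and 0.63 in set 2. Control-labelled cells had 46.0 and 64.7 CPM untreated and 50.6 and 58.5 CPM treated, in sets 2 and 4. The log2 fold change with doxycycline was 0.03 ± 0.25 (SE; edgeR adjusted p = 1), and SH2 cells differed from control-labelled cells by 0.46 ± 0.32 (SE) untreated (adjusted p = 0.485) and 0.52 ± 0.32 (SE) treated (adjusted p = 0.342). Within each set and treatment BMI1 was higher in SH2 than in control-labelled cells, by 0.02 to 0.92 on the log2 CPM scale in the 4 pairs. BMI1 shares 1000 exonic bases with the readthrough gene COMMD3-BMI1 on the same strand, which had 0 counts. The nearest profiles were those of ZFAS1, UBE2W and MARCHF7 (listed under a date in the deposited table), at 0.12, 0.13 and 0.13.

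Of 19 genes of Polycomb repressive complex 1 and its target CDKN2A, 17 were tested, and PCGF2 and RING1 had no counted read. Reads not uniquely aligned were not counted, so this does not show that PCGF2 or RING1 was silent. Doxycycline called 0 of 17 in SH2 cells, with a median of 0.17 beside 0.03. The smallest unadjusted p was that of CBX7, a chromodomain subunit (0.70 ± 0.35 SE, edgeR adjusted p = 0.983), followed by PCGF1, the BMI1 relative (-0.58 ± 0.42 SE, adjusted p = 0.983). Between untreated SH2 and control-labelled cells 0 of 17 passed (3 at an unadjusted p under 0.05, and 1, CBX6, in the DESeq2 test), with CBX6 at -0.84 ± 0.27 (SE; adjusted p = 0.0744) and PCGF3 at -1.18 ± 0.39 (SE; adjusted p = 0.0892), and both passed with the set as a block. In treated cells, where 11.1% of all genes were called, 1 of 17 passed, RNF2, the catalytic ubiquitin ligase subunit, higher in SH2 cells by 1.45 ± 0.43 (SE; adjusted p = 0.0430). The RNF2 call was lost without any of 9 libraries, with adjusted p up to 0.336 without the treated control-labelled library of set 2 (log2 fold change 0.97). It was also lost with the set as a block (0.0544), without the filter on low counts (0.104) and in a fit of the treated groups alone (0.128). With the set as a block the list gave 2 calls untreated and 3 treated, among them CBX6 and PCGF3 but not RNF2. CDKN2A had 12.7 to 36.2 CPM in untreated and 15.5 to 65.4 CPM in treated SH2 cells, and 14.7 to 28.9 CPM in control-labelled cells, and passed in no comparison.

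Beside CD34 and PROM1, a list of 32 surface and quiescence genes of stem and progenitor cells had 22 tested members, and HLF had no read. Doxycycline called 0 of 22 in SH2 cells, with a median of 0.07 beside 0.03, led by ESAM (0.83 ± 0.45 SE) and SLAMF1 (0.70 ± 0.48 SE), both with edgeR adjusted p = 0.983. THY1, PROCR and CD93 stayed at or below 0.723 CPM. Between untreated SH2 and control-labelled cells 0 of 22 were higher and 3 lower (2.94% and 4.9% over all genes), the surface protein CD48 (-2.30 ± 0.41 SE, adjusted p = 0.00280), the repressor ETV6 (-1.40 ± 0.36 SE, adjusted p = 0.0278) and the receptor SLAMF1 (-1.93 ± 0.56 SE, adjusted p = 0.0493). CD48 had 10.8 to 36.8 CPM in SH2 cells and 112 to 153 CPM in control-labelled cells, and its calls held without each library (adjusted p up to 0.0450 untreated), whereas ETV6 was lost without any of 4 libraries (up to 0.296) and SLAMF1 without any of 8 (up to 0.295), both furthest without the untreated control-labelled library of set 2. In treated cells, where 4.6% of all genes were higher and 6.48% lower, 2 of 22 were higher, CD9 (2.71 ± 0.66 SE, adjusted p = 0.0168) and the chemokine receptor CXCR4 (1.504 ± 0.416 SE, adjusted p = 0.0320). Lower in treated SH2 cells were 4, CD48 (-2.38 ± 0.41 SE, adjusted p = 0.00199), the adhesion receptor CD44 (-3.97 ± 1.07 SE, adjusted p = 0.0285), ETV6 (-1.32 ± 0.36 SE, adjusted p = 0.0292) and the phosphatase PTPRC (-1.17 ± 0.34 SE, adjusted p = 0.0387). Without the treated control-labelled library of set 4 the adjusted p were 0.177 for CD9 (log2 fold change 2.12) and 0.249 for CXCR4 (1.33). Without that of set 2 they were 0.451 for CD44 (log2 fold change -2.15), 0.178 for ETV6 (-1.17) and 0.312 for PTPRC (-0.84). In a fit of the treated groups alone CD9 (0.0662), ETV6 (0.0686), CXCR4 (0.115) and PTPRC (0.102) were lost, and 1 of the 5 list calls with a value remained, CD48. Blocked, the list gave 7 calls untreated and 10 treated. Without both control-labelled libraries of set 2 it gave 0 untreated and 4 treated, CD48, CD9, CD99 and TET2, and the list medians with all libraries were -0.17 and -0.11, beside 0.03 and 0.04 over all genes.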

How the data were processed

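RNA from 12 libraries was sequenced from the 3′ end, and the authors deposited whole-number counts per gene and a normalized table. The submitters' processing notes name FastQC, STAR, HTSeq and DESeq2 and the builds hg38 and GRCh38; their versions and the strand setting of the counting were not given in any source read. The deposited normalized signal is counts divided by 1 factor per library: 100% of values were whole after division (within 0.01), and 100% of the recovered reads equalled the counts. Reads in no gene (3.25% to 7.73% of a library), in several (1.11% to 1.62%) or not uniquely aligned (42.2% to 63.8%) were left out. A gene given as without a read may thus have had reads that were left out.

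Counts were fitted with edgeR 4.0.16 (R 4.3.3) by robust quasi-likelihood over all 12 libraries with 1 term per group, TMM factors and filterByExpr with a minimum count of 10, and p-values were adjusted over 11968 genes with a threshold of 0.05. SE is the log2 fold change divided by the square root of F, and log2 CPM used a prior count of 3. Alternatives were DESeq2 1.42.0, DESeq2 size factors, no filter, the set as a block, only the groups compared, and libraries left out; those on recovered reads, without control-labelled set 2 and of the set were added after seeing the data. The design text states that each set is its own sort, and same-set SH2 libraries deviated together (correlations of 0.231 to 0.734, against -0.568 to 0.339 for other pairs), so the sets pair the samples. Except where the set is named as a block, SE and p-values come from the fit without it and do not use this pairing. Comparisons of SH2 with control-labelled cells also include SH2 sets that have no control-labelled library. No 2 libraries of a group agreed within sampling noise (chi-square per degree of freedom 8.39 to 47.7). The script was tested on simulated counts without differences between sets, so that test does not cover data in which sets differ. Gene positions are from GENCODE on GRCh38.

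Named were the 10 regulators, IGF2BP1 and TCF3; of each of 6 lists every gene past the threshold in a comparison, up to 8 by p, and where none passed the 2 smallest p; and the 3 genes of nearest profile to each tested regulator. Other names were chosen after their values were seen. Some genes that the rule names are not reported here. The regulators and lists were chosen with earlier results of these data known. Counting intervals are exact at 95% and, like the limit of 3 counts, cover counting error only.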

Additional observations from a re-analysis of the deposited data

Results flagged for a closer look

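LMO2 in the untreated SH2 library of set 4 stood at 3.32 CPM, apart from the other 3 untreated SH2 libraries at 0.410, 0.593 and 0.648 CPM. These were 11 reads against 1, 2 and 2, and the lower values were below the limit of 3 counts. The gap to the nearest library was 0.918 of the group's range, above the critical value of Dixon's test at 95%. It was the 1 of 10 groups of 4 libraries tested in this way that stood out. Chance gives about 1 in 20 for each group tested, so 1 flag among 10 groups can arise by chance. The treated SH2 library of the same set had 1.35 CPM.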

How the results depend on the processing

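None of the 6 tested regulators was called in any comparison with other size factors, DESeq2, the set as a replicate block, only the groups compared, recovered reads, or without any library; without the filter on low counts TAL1 was, 1 regulator untreated and 1 treated. Counts of all genes are given in the order doxycycline in SH2 cells, in control-labelled cells, difference of the responses, SH2 against control-labelled untreated, and treated. Without the filter the first 4 were 47, 3, 3 and 1449, and 2704 genes differed between sets. With the set as a replicate block 6 genes were called for the first, 1 for the third, 1505 untreated and 2171 treated, and the directions of FLT3 in SH2 cells (-0.11) and KIT in control-labelled cells (-0.022) turned; it changed no other regulator's call or direction. The DESeq2 test gave 17 for the first and 3 for the third. Without both SH2 libraries of set 4 the first was 1, LMO2 in SH2 cells turned to 0.17 and the FLT3 difference of responses to 0.0032. With only the groups compared the first was 0 and treated 789, and of the list calls with a value 13 of 13 untreated and 11 of 20 treated remained. Without both control-labelled libraries of set 2 the first was 0, untreated 322 and treated 646, KIT (-0.56) and FLT3 (-0.33) in control-labelled cells, the FLT3 difference of responses (0.40) and NOTCH1 untreated (0.64) turned; the cause was not tested. Leaving out each library in turn, the counts ran from 0 to 3 for the first, 343 to 1202 untreated, 645 to 1462 treated and 13 to 5530 between sets. Log2 fold changes then crossed 0 as follows. In SH2 cells with doxycycline KIT ran from -0.41 to 1.18, FLT3 from -0.85 to 0.55, BMI1 from -0.087 to 0.17, LMO2 from -0.96 to 0.52 and NOTCH1 from -0.61 to 0.21. In control-labelled cells KIT ran from -0.26 to 0.60, FLT3 from -0.45 to 1.69, BMI1 from -0.24 to 0.25, TAL1 from -0.78 to 5.86, LMO2 from -1.26 to 1.497, NOTCH1 from -0.44 to 1.74, ERG from -2.99 to 1.67 and SOCS2 from -1.73 to 0.34. For the difference of responses KIT ran from -0.57 to 1.01, FLT3 from -1.63 to 0.52, BMI1 from -0.23 to 0.27, LMO2 from -2.11 to 0.65, NOTCH1 from -1.89 to 0.29 and ERG from -1.85 to 2.81. Against control-labelled cells TAL1 untreated ran from -6.60 to 0, NOTCH1 untreated from -1.54 to 0.64 and GATA3 treated from -9.35 to 1.61. Of the 14 untreated and 23 treated list calls, 4 and 7 held without each library. Where an arm was left with 1 library, it was assumed to vary like the other groups. At 2210291 to 3370952 reads, CD34, GATA2, MEIS1 and PROM1 could not be compared.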
